A study of Drosophila melanogaster with 34 samples.

Results

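The comparison described here asks whether removing Zelda early or late in the blastoderm changes different genes. It is the difference between 2 genotype effects on the log2 scale: CRY2-ZLD against wild type with blue light in nuclear cycles 10 to 12 (NC10-12), minus CRY2-ZLD against wild type with blue light in nuclear cycle 14 (NC14). It contrasts 16 of the 34 single-embryo RNA libraries of the series, 4 for each genotype in each window, chosen by their labels. The remaining libraries entered the same fit, where they helped set the gene filter and the estimate of spread. The embryos were Drosophila melanogaster carrying CRY2-ZLD together with His2AvRFP, or His2AvRFP alone, which is called wild type here. All 4 groups therefore carry the fluorescent histone and were all lit at 488 nm, with brief imaging at 587 nm for staging. All were collected 30 minutes into NC14, so the NC10-12 embryos had spent NC13 and the start of NC14 without blue light, while the NC14 embryos were lit up to collection. CRY2-ZLD is the Zelda protein joined to the plant photoreceptor CRY2, whose clustering under blue light was used to inactivate it. No wild-type embryos without light entered the series, and the 2 windows carry separate library number series, so window and library set cannot be told apart in the levels. Each genotype effect is taken within its own window, and the 2 effects share no library.

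Zelda is a maternally supplied zinc finger protein that binds its sites before the zygotic genome is broadly transcribed and makes the chromatin there accessible. It acts ahead of the patterning factors Bicoid and Dorsal on many enhancers, and it is needed for the first zygotic genes, among them those for cellularization, segmentation, dorsoventral patterning and sex determination. Maternal RNAs are cleared over the same hours.

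Values are CPM, the counts of a gene scaled to a common library total. An effect is log2 of CRY2-ZLD over wild type, and the difference between windows is positive where that ratio was higher with NC10-12 light than with NC14 light. A gene is called at an adjusted p under 0.05 in edgeR's quasi-likelihood test over all 9519 genes tested. The ± after a log2 value is an approximate standard error, the absolute log2 value divided by the square root of that test's F statistic. The genotypes did not overlap in CPM in 30.8% of all tested genes under NC10-12 light and in 15.1% under NC14 light. For genes named by the size of their difference, no overlap in the window with the larger effect was required. For these genes it is therefore no separate result. In bulk RNA of a whole embryo, fewer cells of a type and less RNA per cell cannot be told apart.

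The 16 libraries held between 16063942 and 41210334 counts. His2Av, the tagged histone gene, differed by −0.12 ± 0.18 in NC10-12 and by 0.20 ± 0.18 in NC14, and neither passed. The transcript level of zld checks no label, because light acts on the protein. In all, 3 libraries stood apart in ways that their labels do not give, so results that rest on them are also given without these 3. The CRY2-ZLD NC10-12 replicates 3 and 4 had 339 and 445 CPM of bcd, the maternal anterior determinant, against 9.42 and 6.19 CPM in replicates 1 and 2 of that group. Replicate 4 of that group also had 13.5 CPM of twi and 2.72 CPM of sna, both mesoderm determinants, against 222 to 304 CPM of twi and 160 to 213 CPM of sna in the other 3. In wild-type NC14 replicate 3, ribosomal protein genes took 25.3% of the counts, against at most 13.7% in the other libraries. That library had 34.1 CPM of Col4a1 and 20.1 CPM of Hml, genes used as markers of fat body and blood cells, where the other wild-type NC14 libraries had at most 1.40 and 0.833 CPM. Fits without the 3 libraries that stood apart have fewer libraries in 2 of the groups. A call can therefore be lost there while the difference itself stays similar.

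The genotype effect differed between the windows for 462 of 9519 genes (4.85%), with 178 below 0 (1.87%) and 284 above 0 (2.98%). With NC10-12 light, 1567 genes were lower in CRY2-ZLD than in wild type (16.5%) and 1613 were higher (16.9%). With NC14 light, 919 were lower (9.65%) and 742 were higher (7.79%). The genes lower in both windows numbered 493, which is 31.5% of the NC10-12 list and 53.6% of the NC14 list. The 478 genes higher in both were 29.6% of the NC10-12 list and 64.4% of the NC14 list. In opposite directions, 8 genes were lower under NC10-12 light and higher under NC14 light, and 6 were higher under NC10-12 light and lower under NC14 light. Ribosomal protein scaling gave 36 genes below 0 and 53 above 0, a fit of the 16 libraries alone 112 and 94, and leaving out single libraries 70 to 402 and 108 to 555. With libraries scaled on ribosomal protein genes, the lower and higher counts were 889 and 1751 under NC10-12 light and 462 and 1466 under NC14 light. Across genes the 2 effects had a Pearson correlation of 0.557 over 9519 genes, given as a description, since genes are not independent replicates. Without the 3 libraries that stood apart, 14 genes were called below 0 and 57 above 0, and 11 and 56 of them were also called with all libraries.

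**Figure D1:**
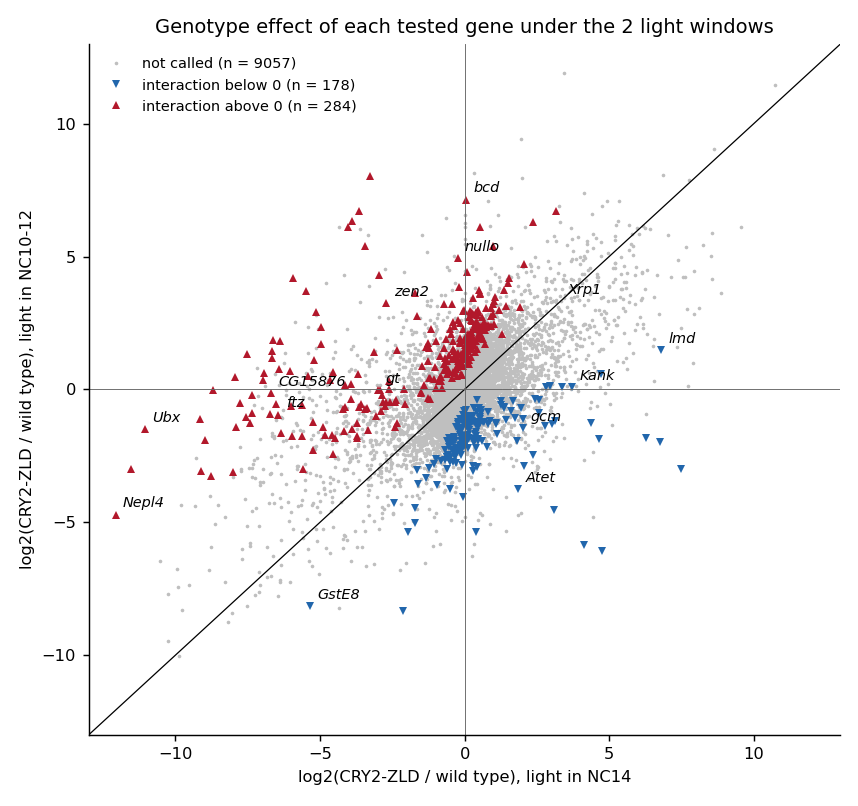
Each point is 1 of the 9519 genes tested, with log2 of CRY2-ZLD over wild type under NC10-12 light on the vertical axis and under NC14 light on the horizontal axis. The diagonal marks equal effects. The 284 genes above 0 (red, pointing up) lie above the diagonal and the 178 below 0 (blue, pointing down) lie under it. Ubx and Nepl4 lie far to the left, and Xrp1 lies on the diagonal.

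The genes called above 0 fell mainly into a set low with late light and a set high with early light. Of the 284, 77 were lower in CRY2-ZLD under NC14 light with no call under NC10-12 light, and 22 were lower in both windows but further below wild type under NC14 light. A further 160 were higher under NC10-12 light with no call under NC14 light. Without the 3 libraries that stood apart, 39, 9 and 7 genes took these places, of which 30, 8 and 6 were in the same class with all libraries. The 77 are described first. In the 2 windows whose libraries entered the shared fit but not this contrast, 43 of the 77 (55.8%) were lower in CRY2-ZLD under NC13-14 light, where 8.94% of all tested genes were lower, and 35 (45.5%) were lower under NC10-14 light, where 7.58% were.

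Among the segmentation genes, the pair-rule gene ftz, which is expressed in stripes along the trunk, was low with late light. On dm6, ftz lies on chromosome arm 3R from 6864324 to 6866244. Its level was 195, 234, 78.2 and 59.3 CPM in CRY2-ZLD NC10-12 embryos, against 278, 272, 303 and 242 CPM in wild-type NC10-12 embryos. It was 0.349, 3.32, 0.354 and 8.15 CPM in CRY2-ZLD NC14 embryos, against 208, 310, 260 and 267 CPM in wild-type NC14 embryos. The genotypes did not overlap in either window, and every CRY2-ZLD NC14 embryo lay below every CRY2-ZLD NC10-12 embryo. The effects were −0.95 ± 0.61 in NC10-12, which did not pass (adjusted p = 0.2474), and −6.44 ± 0.78 in NC14, a difference of 5.49 ± 0.93 (adjusted p = 0.001157). In the other libraries ftz differed by −7.40 under NC13-14 light and by −8.95 under NC10-14 light, both called. The gap gene gt, a repressor that sets the borders of its neighbours and lies on chromosome X from 2427113 to 2428967, was 190, 218, 117 and 163 CPM in CRY2-ZLD NC10-12 embryos, against 172, 185, 195 and 147 CPM in wild type of that window. It was 10.2, 20, 6.6 and 27.1 CPM in CRY2-ZLD NC14 embryos, against 160, 138, 88.2 and 121 CPM in wild type of that window. The NC10-12 genotypes overlapped and the NC14 genotypes did not overlap, with effects of −0.02 ± 0.36 and −2.99 ± 0.39 (difference 2.97 ± 0.52, adjusted p = 0.001331).

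List counts here and below stand beside the shares over all tested genes. Those were 16.5% lower and 16.9% higher under NC10-12 light, and 9.65% lower and 7.79% higher under NC14 light. For the difference, 1.87% were called below 0 and 2.98% above 0. Of the 10 pair-rule genes tested, 6 were lower under NC10-12 light and 9 under NC14 light, and 2 (ftz and hry) passed the test of the difference. Without the 3 libraries, 1 was lower under NC10-12 light and 9 under NC14 light, and 2 passed. The repressor gene hry averaged 67.2 ± 48.6 CPM in CRY2-ZLD NC10-12 embryos and 240 ± 15.7 CPM in wild type, and 9.48 ± 2.16 CPM in CRY2-ZLD NC14 embryos and 213 ± 79.3 CPM in wild type (SD, n = 4 each). Its difference of 2.66 ± 0.70 (adjusted p = 0.02619) was no longer called without 1 of 3 libraries, wild-type NC10-12 replicate 1 or CRY2-ZLD NC14 replicate 1 or 3. The stripe gene eve was lower in both windows, by −1.15 ± 0.39 and −2.58 ± 0.41, and the difference of 1.42 ± 0.54 did not pass (adjusted p = 0.1206). Of 9 trunk gap genes, 0 were lower under NC10-12 light and 3 (gt, tll and nub) under NC14 light, with gt passing the test of the difference. Kr and kni did not pass in either window, with NC14 effects of −0.76 ± 0.33 and −0.58 ± 0.40.

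The Hox gene Ubx, which specifies posterior thoracic and abdominal identity and lies on 3R from 16656623 to 16734426, had 4.57, 6.95, 5.98 and 0.553 CPM in CRY2-ZLD NC10-12 embryos, against 11.1, 12.9, 13.3 and 13.2 CPM in wild type of that window. All 4 CRY2-ZLD NC14 embryos had 0 counts, against 9.69, 11.1, 11.3 and 14.0 CPM in wild type of that window. With a floor of 3 counts over the group, Ubx was at least 308-fold lower in CRY2-ZLD NC14 embryos than in wild type, and its difference between windows was called (adjusted p = 0.0005208). The embryo with 0.553 CPM was CRY2-ZLD NC10-12 replicate 4, and without the 3 libraries the adjusted p was 0.000805. The non-coding RNA lncRNA:iab4 lies on the same arm, on the far side of abd-A from Ubx. It was 2.98, 2.16, 0.253 and 0.553 CPM in CRY2-ZLD NC10-12 embryos, against 18.2, 10.8, 6.33 and 11.6 CPM in wild type. It had 0 counts in all 4 CRY2-ZLD NC14 embryos, at least 423-fold below wild type. Its exons overlap lncRNA:iab8 on the other strand over 19.8% of their length, and the counting used no strand. Of 8 Hox genes tested, 1 was lower and 0 higher under NC10-12 light, and 4 were lower and 1 higher under NC14 light. The 2 called above 0 were Ubx and pb, but pb stayed under 3 CPM in every library. The gene abd-A was lower under NC14 light, by −3.57 ± 0.71, but its difference of 2.97 ± 0.92 did not pass (adjusted p = 0.05426). The list's NC10-12 median of 1.3 became 0.0826 without the 3 libraries, and its NC14 median was −2.85 with all libraries and −3.17 without the 3.

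**Figure D2:**
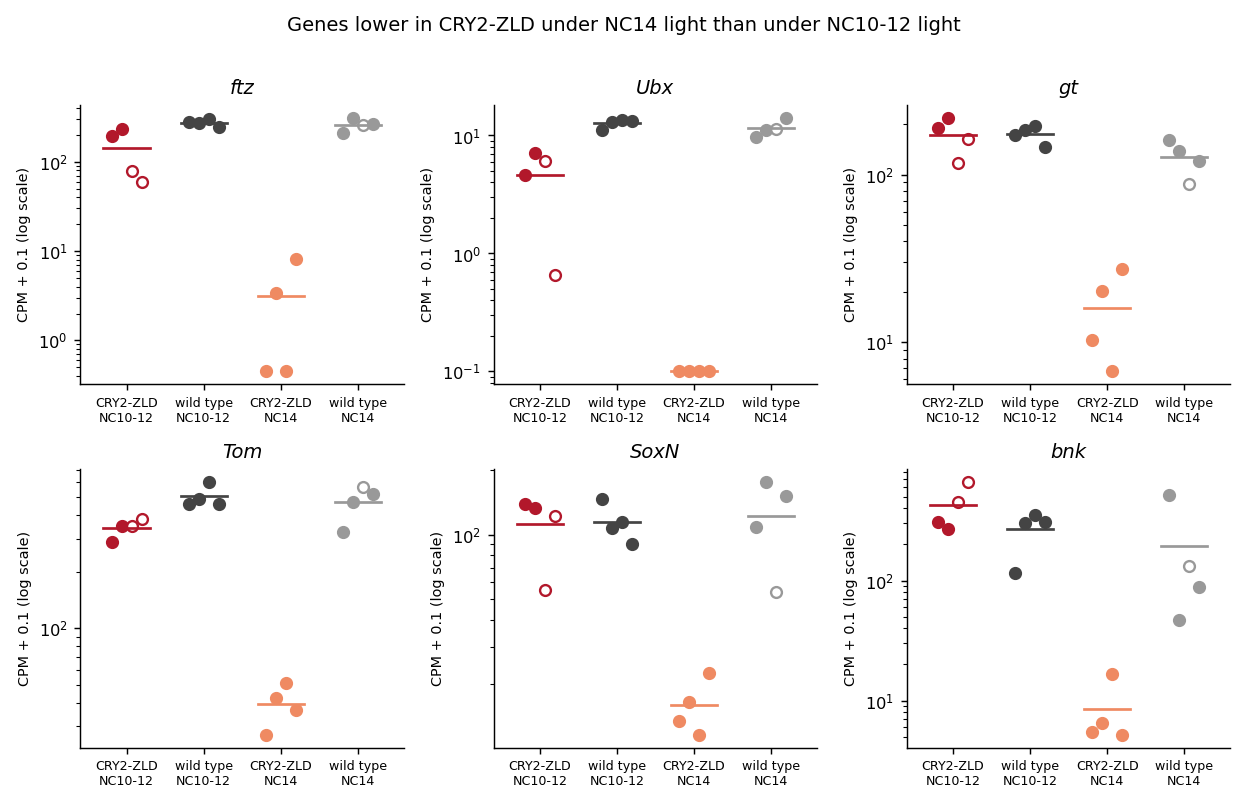
CPM plus 0.1 on a log scale for 6 genes in each of the 16 libraries, with bars at the group means and open circles for the 3 libraries that stood apart. For ftz, Ubx, gt, Tom, SoxN and bnk the 4 CRY2-ZLD NC14 embryos lie below all other embryos, while the CRY2-ZLD NC10-12 embryos lie among or closer to wild type.

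The BMP inhibitor gene sog was 189, 504, 455 and 162 CPM in CRY2-ZLD NC10-12 embryos, against 619, 572, 577 and 384 CPM in wild type, and 34.3, 69.8, 58.9 and 30.9 CPM in CRY2-ZLD NC14 embryos, against 490, 506, 199 and 813 CPM in wild type. The effects were −0.71 ± 0.36 (not called) and −3.37 ± 0.40, a difference of 2.66 ± 0.52 (adjusted p = 0.003974). The protease gene tld, whose product cleaves Sog, was lower in both windows, by −1.71 ± 0.42 and −4.82 ± 0.49 (difference 3.12 ± 0.60, adjusted p = 0.003705). Of the 11 dorsal BMP genes tested, 4 were lower and 2 higher under NC10-12 light, 9 were lower and 0 higher under NC14 light, and 5 (tld, tsg, sog, zen and zen2) were called above 0. Of the 11, 3 were called without the 3 libraries. Of 9 neuroectoderm and midline genes, 2 were lower and 0 higher under NC10-12 light, 2 were lower and 1 higher under NC14 light, and SoxN was the 1 called above 0, with a list median difference of 0.181. SoxN, an early neural gene, averaged 112 ± 38.7 CPM in CRY2-ZLD NC10-12 embryos and 115 ± 23.3 CPM in wild type, and 15.9 ± 4.78 CPM in CRY2-ZLD NC14 embryos and 123 ± 53.8 CPM in wild type (difference 2.91 ± 0.63, adjusted p = 0.009401).

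The homeobox genes zen and zen2, of which zen specifies amnioserosa, moved in opposite directions in the 2 windows with all libraries. They were the 2 dorsal BMP genes called higher under NC10-12 light, and without the 3 libraries 1 gene of that list was called higher there. For zen, CRY2-ZLD NC10-12 embryos had 267, 200, 313 and 419 CPM, against 95.7, 109, 91.5 and 134 CPM in wild type, while CRY2-ZLD NC14 embryos had 13.6, 14.6, 3.68 and 36.3 CPM, against 148, 48.7, 125 and 21.3 CPM in wild type. The NC10-12 genotypes did not overlap and the NC14 genotypes did, with effects of 1.48 ± 0.50 and −2.33 ± 0.51, both called, and a difference of 3.81 ± 0.71 (adjusted p = 0.003189). The zen difference was 3.19 without the 3 libraries, with an adjusted p of 0.0507. For zen2, CRY2-ZLD NC10-12 embryos had 8.03, 19.9, 40.7 and 31.0 CPM, against 1.77, 2.06, 4.20 and 2.48 CPM in wild type, while CRY2-ZLD NC14 embryos had 0.698, 0, 0 and 0.455 CPM, against 3.10, 1.53, 2.63 and 0.519 CPM in wild type. Its difference was 5.95 ± 0.98 (adjusted p = 0.001039) and 4.94 without the 3 libraries (adjusted p = 0.0169). Under NC10-14 and NC13-14 light both genes were lower in CRY2-ZLD, zen by −5.47 and −3.78 and zen2 by −5.74 and −2.21.

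Of the Bearded family genes, small Notch pathway inhibitors, Brd, Tom, Ocho, BobA and E(spl)m4-BFM were lower after late light, and of these Ocho was the 1 also called lower after early light. E(spl)malpha-BFM was lower after early light (−1.51 ± 0.55) and not called after late light (0.32 ± 0.54). Tom was 289, 350, 349 and 384 CPM in CRY2-ZLD NC10-12 embryos, against 460, 490, 605 and 459 CPM in wild type, and 26.9, 42.2, 51.2 and 36.4 CPM in CRY2-ZLD NC14 embryos, against 326, 469, 564 and 520 CPM in wild type. The NC10-12 effect was −0.55 ± 0.30 and was not called although the libraries did not overlap, as in 30.8% of all tested genes in that window and 15.1% in NC14. The NC14 effect was −3.58 ± 0.33, and the difference was 3.03 ± 0.44 (adjusted p = 0.0002635). Of 11 Bearded and E(spl) genes tested, 4 were lower under NC10-12 light, 5 were lower and 1 higher under NC14 light, and 5 (Brd, Tom, Ocho, BobA and E(spl)m4-BFM) were called above 0, while no basic helix-loop-helix member passed the test of the difference in edgeR. Of the 11, 4 were called without the 3 libraries and 2 with ribosomal protein scaling. BobA has near-identical neighbours, so its counts are uncertain. When libraries were scaled on ribosomal protein genes, the differences of sog, Brd, grh, hry and sli were no longer called, with adjusted p of 0.0513, 0.065, 0.0588, 0.105 and 0.102.

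Genes of cellularization, in which membranes close around the nuclei during NC14, were mostly low after late light. The furrow gene bnk was 307, 268, 454 and 668 CPM in CRY2-ZLD NC10-12 embryos, against 116, 301, 349 and 305 CPM in wild type, and 5.36, 6.46, 16.6 and 5.06 CPM in CRY2-ZLD NC14 embryos, against 513, 46.4, 131 and 89.0 CPM in wild type. Only the NC14 genotypes did not overlap, and the difference was 5.20 ± 0.88 (adjusted p = 0.001157). The membrane invagination gene slam averaged 3604 ± 944 CPM in CRY2-ZLD NC10-12 embryos and 4794 ± 706 CPM in wild type, and 725 ± 292 CPM in CRY2-ZLD NC14 embryos and 3738 ± 2498 CPM in wild type. Its difference of 1.96 ± 0.50 (adjusted p = 0.02176) was not called without the 3 libraries (adjusted p = 0.216), nor without CRY2-ZLD NC10-12 replicate 4, wild-type NC10-12 replicate 1, CRY2-ZLD NC14 replicate 1 or wild-type NC14 replicate 1. The actin regulator gene nullo went another way, with 124, 143, 185 and 118 CPM in CRY2-ZLD NC10-12 embryos, against 2.58, 7.89, 2.50 and 5.54 CPM in wild type, and 3.66, 8.81, 0.620 and 3.19 CPM in CRY2-ZLD NC14 embryos, against 11.2, 0.671, 6.35 and 0.830 CPM in wild type. All 4 CRY2-ZLD NC10-12 embryos were high for nullo, the 2 with low bcd included, and the difference was 5.18 ± 1.02 with all libraries (adjusted p = 0.00414) and 4.89 without the 3 (adjusted p = 0.0335). Under NC10-14 light, which also covers the early cycles, nullo was called lower in CRY2-ZLD, by −3.37. Its effect of 1.48 under NC13-14 light was not called. Of 7 cellularization genes tested, 5 were lower under NC14 light and 1 under NC10-12 light, and 4 (slam, nullo, bnk and Nrt) were called above 0, against 2 without the 3 libraries.

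The genes dunk, SNCF and Ppa of the same class were singled out after their values were seen, and their differences kept the call in the 27 alternative fits run for each. The cellularization gene dunk averaged 585 ± 136 CPM in CRY2-ZLD NC10-12 embryos and 388 ± 130 CPM in wild type, and 24.8 ± 11.1 CPM in CRY2-ZLD NC14 embryos and 322 ± 206 CPM in wild type (difference 4.29 ± 0.62, adjusted p = 0.0002635). SNCF averaged 549 ± 123 CPM in CRY2-ZLD NC10-12 embryos and 698 ± 102 CPM in wild type, and 52.7 ± 17.3 CPM in CRY2-ZLD NC14 embryos and 803 ± 437 CPM in wild type. Ppa averaged 516 ± 83.8 CPM in CRY2-ZLD NC10-12 embryos and 858 ± 32.7 CPM in wild type, and 46.4 ± 22.1 CPM in CRY2-ZLD NC14 embryos and 864 ± 187 CPM in wild type. In all 3 genes the 4 CRY2-ZLD NC14 embryos lay below every other embryo. The smallest adjusted p of all genes belonged to CG15876, an uncharacterised gene with 113, 75.6, 57.1 and 97.4 CPM in CRY2-ZLD NC10-12 embryos, against 56.9, 137, 81.8 and 103 CPM in wild type, and 0.872, 0.343, 0.133 and 1.97 CPM in CRY2-ZLD NC14 embryos, against 176, 38.8, 91.1 and 39.9 CPM in wild type. Its difference was 6.56 ± 0.74 (adjusted p = 5.074e-06).

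Of 6 genes of X chromosome counting and Sxl, 3 were lower and 1 higher under NC10-12 light, 4 were lower and 0 higher under NC14 light, and 2 (upd1 and sc) were called above 0, against 1 without the 3 libraries. The signal genes sisA and run were lower in both windows. For sisA the level was 13 to 37.4 CPM in CRY2-ZLD NC10-12 embryos, against 162 to 230 CPM in wild type, and 4.17 to 14 CPM in CRY2-ZLD NC14 embryos, against 73.1 to 281 CPM in wild type, and its difference of 1.54 ± 0.75 did not pass. For run the effects were −1.98 ± 0.40 and −1.72 ± 0.40, and the difference of −0.26 ± 0.55 did not pass. The cytokine gene upd1 was close to wild type after early light, at 69.5, 116, 38.9 and 41.9 CPM in CRY2-ZLD NC10-12 embryos, against 52.7, 83.3, 36.2 and 63.2 CPM in wild type. It was 2.70, 5.15, 0.975 and 4.40 CPM in CRY2-ZLD NC14 embryos, against 120, 29.5, 52.5 and 30.8 CPM in wild type (difference 4.32 ± 0.83, adjusted p = 0.003705). The proneural gene sc was higher after early light, at 6.68, 28.5, 81.1 and 14.8 CPM in CRY2-ZLD NC10-12 embryos, against 2.96, 5.69, 3.47 and 2.16 CPM in wild type, with no call in NC14. Its difference of 3.62 ± 0.87 (adjusted p = 0.01671) was not called without CRY2-ZLD NC10-12 replicate 3. Under NC10-14 light sc was called lower in CRY2-ZLD, by −6.26, and its effect of −1.62 under NC13-14 light was not called. The dosage compensation RNA lncRNA:roX1 averaged 721 ± 216 CPM in CRY2-ZLD NC10-12 embryos and 1007 ± 295 CPM in wild type, and 130 ± 41.8 CPM in CRY2-ZLD NC14 embryos and 856 ± 226 CPM in wild type. Its difference of 2.24 ± 0.59 was called (adjusted p = 0.02558). Without the 3 libraries the difference was 2.28, but the call was lost (adjusted p = 0.133). The call was also lost without CRY2-ZLD NC10-12 replicate 3 or CRY2-ZLD NC14 replicate 1 or 3. Of 3 dosage compensation genes tested, 1 was lower in each window, and lncRNA:roX1 was the 1 called above 0. The gene msl-2 went the other way, with effects of −2.97 ± 0.70 in NC10-12 (called) and −0.24 ± 0.65 in NC14 (not called). The msl-2 difference of −2.73 ± 0.93 did not pass (adjusted p = 0.08064). Sxl was 75.6, 226, 142 and 28.9 CPM in CRY2-ZLD NC10-12 embryos, against 2040, 2030, 123 and 1730 CPM in wild type, and 187, 420, 208 and 183 CPM in CRY2-ZLD NC14 embryos, against 1940, 171, 740 and 1910 CPM in wild type. Its difference of −1.40 ± 1.25 did not pass, and the wild-type embryos spread widely within each window. The labels used here give no sex for these single embryos, and its part in the X-linked results was not tested.

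The 22 genes lower in both windows, but further below wild type with late light, included grh, hry, tld, Nepl4, sli, phtm and dib. The epidermal regulator grh averaged 92.0 ± 12.4 CPM in CRY2-ZLD NC10-12 embryos and 270 ± 58.8 CPM in wild type, and 16 ± 4.03 CPM in CRY2-ZLD NC14 embryos and 290 ± 95 CPM in wild type. The effects were −1.55 ± 0.36 and −4.18 ± 0.40, with a difference of 2.63 ± 0.50 (adjusted p = 0.003705). The protease-related gene Nepl4 was 0.240, 0.678, 0.927 and 1.11 CPM in CRY2-ZLD NC10-12 embryos, against 16.4, 27.7, 13.4 and 21.1 CPM in wild type, and had 0 counts in all 4 CRY2-ZLD NC14 embryos, at least 601-fold below wild type. The midline guidance ligand gene sli, singled out after its values were seen, averaged 300.5 ± 85.9 CPM in CRY2-ZLD NC10-12 embryos and 1024 ± 226 CPM in wild type, and 70.2 ± 18.8 CPM in CRY2-ZLD NC14 embryos and 929 ± 337 CPM in wild type. All 22 were also lower under NC13-14 light and under NC10-14 light, where 8.94% and 7.58% of all tested genes were lower. The class was itself defined by lower calls in both windows of the contrast. The ecdysone synthesis genes phtm and dib were called above 0 at adjusted p of 0.04666 and 0.03554, but leaving out single libraries ended these calls in 11 and 10 of 16 runs, and 20.3% of the exon length of dib overlaps wit on the other strand. The insulator factor gene Elba2 belonged to the 77, with 812 ± 153 CPM in CRY2-ZLD NC10-12 embryos and 939 ± 282 CPM in wild type. In NC14 it had 112 ± 59.7 CPM in CRY2-ZLD embryos and 805 ± 478 CPM in wild type. Of 4 Elba genes tested, 2 were lower under NC10-12 light and 3 under NC14 light, and Elba2 was the 1 whose difference was called.

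The genes called below 0 were fewer, and 11 of the 178 (6.18%) were also called below 0 without the 3 libraries. Of the 178, 131 were lower under NC10-12 light with no call under NC14 light, 27 were higher under NC14 light with no call under NC10-12 light, 11 were lower in both but more so with early light, and 8 were lower under NC10-12 light and higher under NC14 light. Without the 3 libraries these classes held 3, 5, 2 and 4 genes, of which 2, 2, 2 and 1 were in the same class with all libraries. Of the 131, 33 (25.2%) were lower under NC13-14 light, where 8.94% of all tested genes were, and 19 (14.5%) were lower and 6 (4.58%) higher under NC10-14 light, where 7.58% and 7.82% were. Of the 27, 14 (51.9%) were higher under NC13-14 light and 7 (25.9%) under NC10-14 light, where 8.32% and 7.82% of all tested genes were higher.

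Among the genes higher with late light were lmd, Kank and dap, all low in wild type of both windows. The myoblast factor gene lmd was 1.97, 1.48, 0.716 and 0 CPM in CRY2-ZLD NC10-12 embryos, against 0.239, 0.294, 0.670 and 0.314 CPM in wild type, and 54.4, 24.4, 31.7 and 16.6 CPM in CRY2-ZLD NC14 embryos, against 0.735, 0.232, 0 and 0 CPM in wild type. The NC10-12 genotypes overlapped, and the NC14 genotypes were apart, which the naming rule required. The NC14 effect was 6.81 ± 0.93 and the difference −5.34 ± 1.19 (adjusted p = 0.01184 with all libraries, 0.0619 without the 3). Under NC13-14 and NC10-14 light lmd was higher in CRY2-ZLD by 6.89 and 5.05, both called. Kank averaged 8.46 ± 2.30 CPM in CRY2-ZLD NC10-12 embryos and 7.88 ± 5.35 CPM in wild type, and 93.9 ± 35.3 CPM in CRY2-ZLD NC14 embryos and 7.10 ± 4.15 CPM in wild type (difference −3.62 ± 0.77, adjusted p = 0.008802, and 0.106 without the 3 libraries). The exons of Kank overlap Cyp317a1 on the other strand over 17.9% of their length. The cyclin-dependent kinase inhibitor gene dap, which ends proliferation in the epidermis, averaged 7.89 ± 2.51 CPM in CRY2-ZLD NC10-12 embryos and 10.5 ± 5.08 CPM in wild type, and 45.4 ± 22.7 CPM in CRY2-ZLD NC14 embryos and 7.61 ± 3.37 CPM in wild type. Its difference was −2.98 ± 0.58 (adjusted p = 0.003956, and 0.0846 without the 3 libraries), and dap was the 1 of 12 mitotic cycle genes called.

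Genes that moved in opposite directions included gcm, the glial and blood cell determinant. It was 1.63, 0.678, 1.85 and 1.40 CPM in CRY2-ZLD NC10-12 embryos, against 4.82, 4.80, 2.25 and 3.42 CPM in wild type, and 20.8, 14.0, 42.9 and 15.9 CPM in CRY2-ZLD NC14 embryos, against 1.20, 8.98, 5.64 and 7.32 CPM in wild type. The genotypes did not overlap in either window, which the naming rule required in NC14. The effects were −1.46 ± 0.49 and 2.01 ± 0.48 (difference −3.47 ± 0.69, adjusted p = 0.004381, and 0.0335 without the 3 libraries). The neural factor gene nerfin-1, singled out after its values were seen, averaged 1.16 ± 0.823 CPM in CRY2-ZLD NC10-12 embryos and 6.44 ± 4.30 CPM in wild type, and 22.1 ± 14.4 CPM in CRY2-ZLD NC14 embryos and 4.30 ± 1.73 CPM in wild type. Its difference was −4.82 ± 0.84 (adjusted p = 0.001331, and 0.0273 without the 3 libraries). The largest difference below 0 by the naming rule was that of Atet, a transporter gene, at −5.62 ± 1.23. Atet was lower under NC10-12 light, by −3.77 ± 0.93, and its NC14 effect of 1.85 ± 0.81 was not called (adjusted p = 0.115). It was 0.913, 0.170, 0.169 and 0 CPM in CRY2-ZLD NC10-12 embryos, against 6.35, 4.02, 2.19 and 4.36 CPM in wild type, and 9.29, 17.6, 16.5 and 13.4 CPM in CRY2-ZLD NC14 embryos, against 5.20, 3.38, 0 and 7.06 CPM in wild type. Dr, babos, ITP, CG7191, insc and AdamTS-A made up the rest of the 10 with the most negative difference, with values between −4.95 and −3.44, and of these Dr alone was also called without the 3 libraries (adjusted p = 0.0274).

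**Figure D3:**
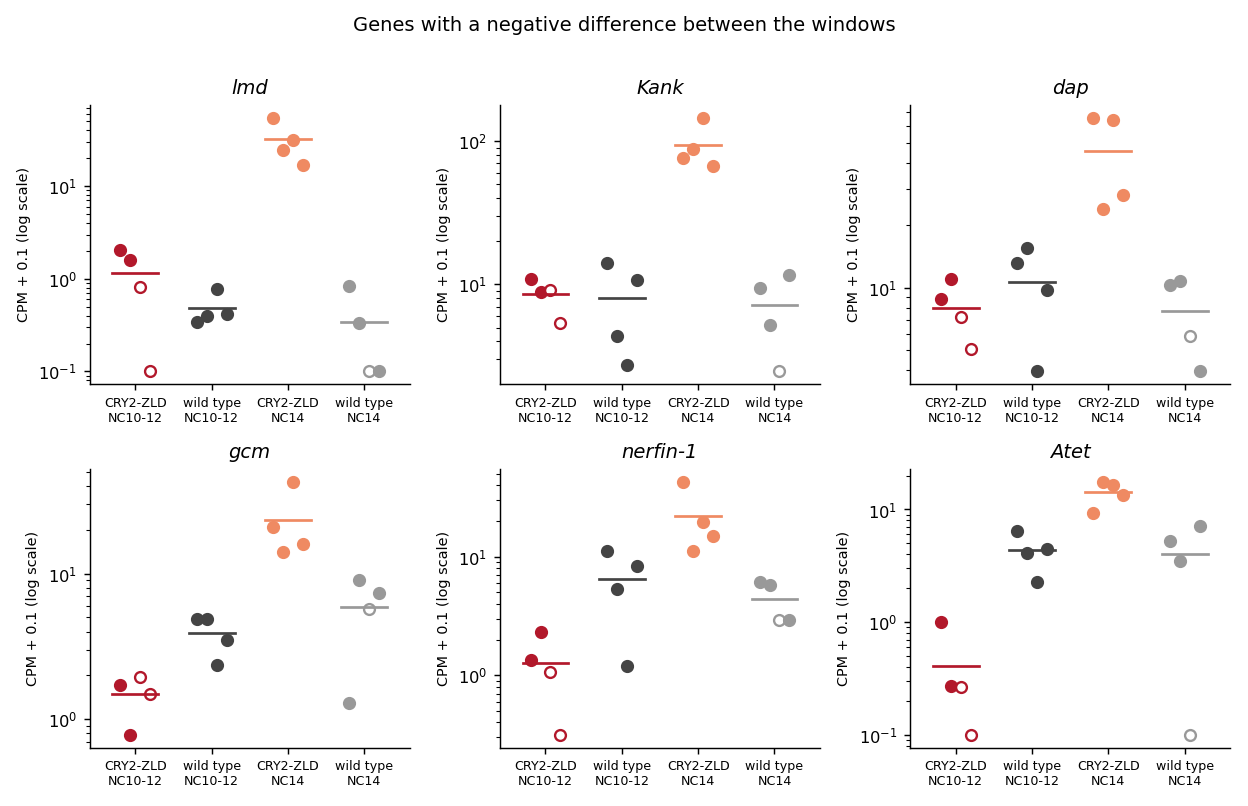
CPM plus 0.1 on a log scale for 6 genes with a difference below 0 in each of the 16 libraries, with bars at the group means and open circles for the 3 libraries that stood apart. The CRY2-ZLD NC14 embryos are the highest group for each gene, and for gcm, nerfin-1 and Atet the CRY2-ZLD NC10-12 embryos are the lowest group.

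Of 9 amnioserosa genes tested, 4 were lower and 1 higher under NC10-12 light, and 4 were lower and 0 higher under NC14 light. The list median difference was −0.056, with 1 gene (ush) called below 0 and 1 (C15) above 0. C15 differed by 10.35 ± 2.44 (adjusted p = 0.01671), but its highest group mean was 1.84 CPM. Doc2 was lower in both windows, by −3.503 and −6.965, and its difference of 3.462 did not pass (adjusted p = 0.05333). The cofactor gene ush showed a loss with early light. It was 1.63, 2.54, 1.22 and 1.70 CPM in CRY2-ZLD NC10-12 embryos, against 45.7, 11, 14.2 and 25.2 CPM in wild type, and 21.3, 16.1, 50.4 and 33.7 CPM in CRY2-ZLD NC14 embryos, against 7.92, 82.5, 42.1 and 41.2 CPM in wild type. The NC10-12 effect was −3.76 ± 0.65 and the NC14 effect −0.51 ± 0.57. The difference of −3.24 ± 0.84 (adjusted p = 0.02463) was not called without the 3 libraries (adjusted p = 0.227), nor without CRY2-ZLD NC10-12 replicate 3 or 4, wild-type NC10-12 replicate 1 or CRY2-ZLD NC14 replicate 3. The FGF pathway gene stumps, lower under NC10-12 light and not called under NC14 light, averaged 3.30 ± 2.55 CPM in CRY2-ZLD NC10-12 embryos and 74.1 ± 28.8 CPM in wild type, and 39.5 ± 12.6 CPM in CRY2-ZLD NC14 embryos and 92.8 ± 55.8 CPM in wild type, but its difference did not pass (adjusted p = 0.05843). Of 9 segment polarity genes, wg was the 1 called, at −2.03 ± 0.59 (adjusted p = 0.04066), and leaving out any 1 of 10 of the 16 libraries ended that call.

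The 160 genes higher under NC10-12 light with no call under NC14 light included the maternal RNAs bcd, smg and pum. The determinant bcd had 9.42, 6.19, 339 and 445 CPM in CRY2-ZLD NC10-12 embryos, against 1.05, 1.23, 1.95 and 1.45 CPM in wild type, and 0.392, 2.97, 0 and 1.77 CPM in CRY2-ZLD NC14 embryos, against 2.59, 0.486, 0 and 1.56 CPM in wild type. Its difference was 7.09 ± 1.56 with all libraries (adjusted p = 0.01106) and 2.72 without the 3 (adjusted p = 0.393). Because 2 of the 3 libraries were set apart by their bcd level, this drop follows from that choice and is no separate result. The RNA-clearance regulator smg had 120, 142, 1690 and 838 CPM in CRY2-ZLD NC10-12 embryos, against 85.7, 103, 151 and 120 CPM in wild type, and its difference was 2.83 ± 0.72 with all libraries and 0.324 without the 3. The zld transcript itself had 464, 1050, 1950 and 1350 CPM in CRY2-ZLD NC10-12 embryos, against 482, 422, 488 and 489 CPM in wild type, and 332, 568, 365 and 384 CPM in CRY2-ZLD NC14 embryos, against 461, 406, 574 and 473 CPM in wild type. The zld difference of 1.57 ± 0.39 (adjusted p = 0.01869) became 0.783 without the 3 libraries (adjusted p = 0.428). For each of bcd, smg and zld the same 2 embryos were among the high ones.

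Of 13 genes of egg activation and maternal clearance tested, 7 were higher and 1 lower under NC10-12 light, 1 was higher and 1 lower under NC14 light, and 3 (bcd, smg and pum) were called above 0, none of them without the 3 libraries, when 4 were higher and 2 lower under NC10-12 light. The summed level of the list was 2810, 3320, 6310 and 5720 CPM in CRY2-ZLD NC10-12 embryos, against 1880 to 2630 CPM in wild type, and 1950 to 2420 CPM in CRY2-ZLD NC14 embryos, against 1580 to 2520 CPM in wild type. Replicates 1 and 2 of the CRY2-ZLD NC10-12 group thus also lay above the wild type of their window, by less. The pole cell list, markers of another cell type that holds maternal RNA, summed to 932, 1120, 2440 and 1940 CPM in CRY2-ZLD NC10-12 embryos, against 1180 to 1440 CPM in wild type, and all 9 of its genes in the table were above 0 in every library. Its part in the result was not tested.

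**Figure D4:**
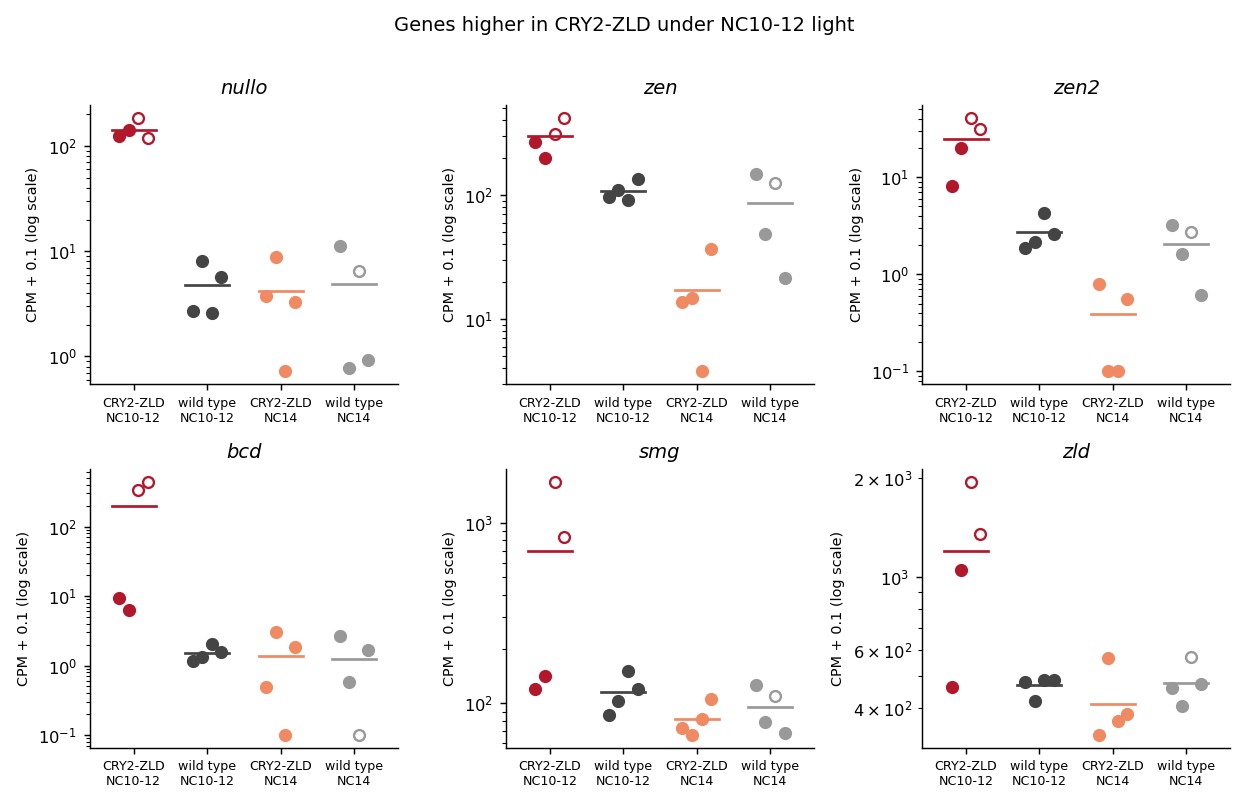
CPM plus 0.1 on a log scale for 6 genes in each of the 16 libraries, with bars at the group means and open circles for the 3 libraries that stood apart. All 4 CRY2-ZLD NC10-12 embryos are high for nullo, zen and zen2, while bcd and smg are high in the 2 open circles of that group.

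Some large effects passed in both windows. The stress factor gene Xrp1 was 17, 17.5, 15.3 and 22.2 CPM in CRY2-ZLD NC10-12 embryos, against 1.77, 1.42, 2.50 and 1.49 CPM in wild type, and 13.8, 11.8, 19.5 and 34.2 CPM in CRY2-ZLD NC14 embryos, against 1.72, 4.12, 1.22 and 0.623 CPM in wild type. The effects were 3.33 ± 0.49 and 3.32 ± 0.49, and the difference was 0.01 ± 0.60. Of 9 cell death and p53 genes tested, 6 were higher in each window and 0 passed the test of the difference by edgeR's quasi-likelihood test, while 2 had an unadjusted p under 0.05. The apoptosis gene hid came closest, with 94.6 ± 17 CPM in CRY2-ZLD NC10-12 embryos and 39.2 ± 2.28 CPM in wild type, and 249 ± 91.3 CPM in CRY2-ZLD NC14 embryos and 26.6 ± 12.4 CPM in wild type (adjusted p = 0.06052). The mesoderm determinants twi and sna did not pass in either window, with NC14 effects of −1.28 ± 0.49 and −0.78 ± 0.65, and 0 of 12 mesoderm and FGF genes passed the test of the difference in edgeR, while 4 had an unadjusted p under 0.05. A p that misses the threshold does not show that the windows act alike.

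The median difference was 2.76 for the Hox list (8 genes), 1.5 for X counting (6), 1.48 for dorsal BMP (11), 1.32 for pair-rule (10) and 1.01 for cellularization (7), where the median of all genes tested was 0.0488. These 5 medians were 2.39, 1.31, 1.06, 1.87 and 1.2 without the 3 libraries. For apical constriction (5 genes) the median was −1.09 with all libraries and −0.636 without the 3, and for segment polarity (9 genes) −0.997 and −1.51. The NC10-12 median of the segment polarity list changed sign without the 3 libraries, at 0.642 with all libraries and −0.657 without them. In the Hox, X counting, dorsal BMP, pair-rule and cellularization lists the NC14 median was below the NC10-12 median. The list of late NC14 and gastrula genes, a readout of stage, had medians of −0.256 in NC10-12 and 1.08 in NC14, and wg was the 1 of its 11 genes called. Of 84 ribosomal protein genes, 43 were lower under NC14 light with all libraries, 5 without the 3 libraries and 2 when libraries were scaled on these genes.

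**Figure D5:**
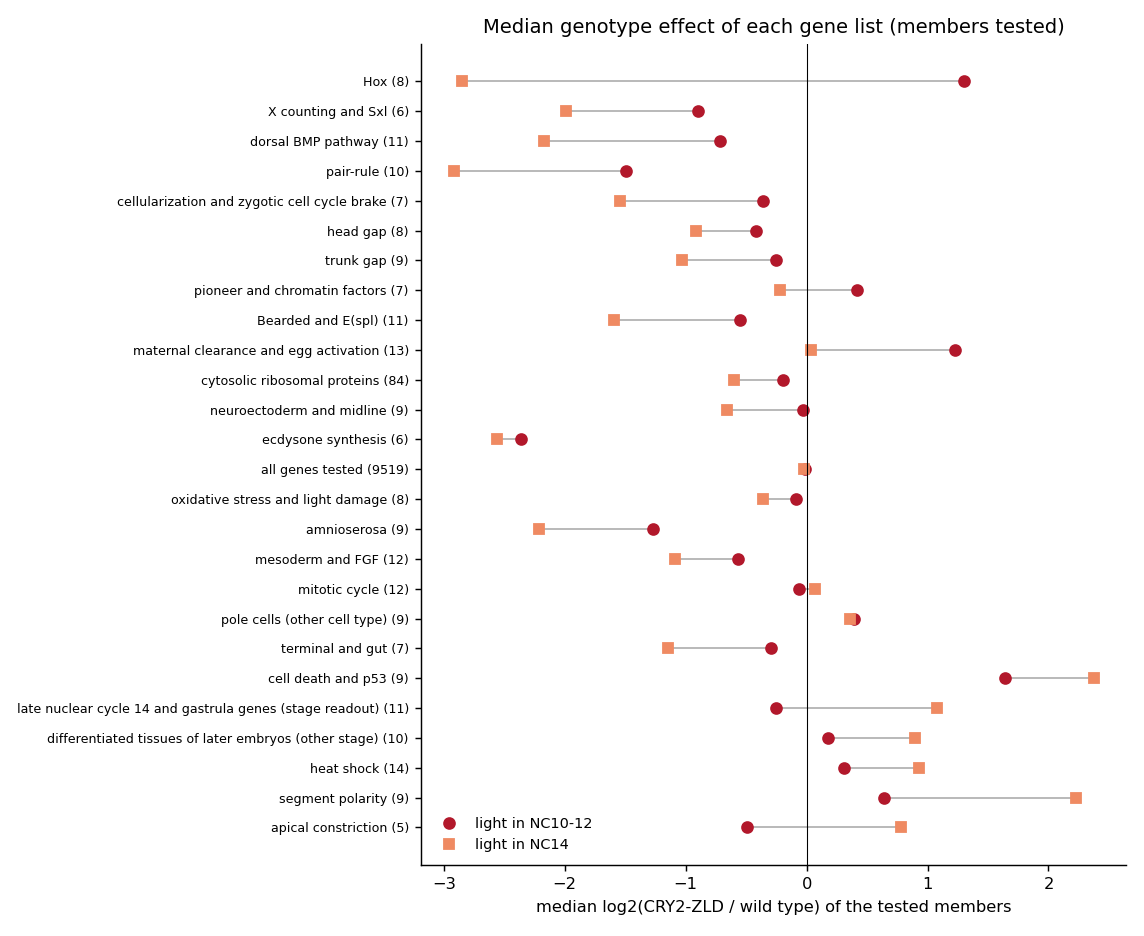
Median log2 of CRY2-ZLD over wild type of the tested members of each list with at least 5 of them, under NC10-12 light (circles) and NC14 light (squares), ordered by the median difference. The pair-rule, dorsal BMP, cellularization and Hox squares lie left of their circles, and the cell death list lies right of 0 in both windows.

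Exon number, length and chromosome, which the comparison did not use, are given as descriptions. Genes with 1 exon made up 12.3% of the tested genes with an exon number, 13.4% of the genes above 0, 7.39% of those below 0 and 28.9% of the 77 late-loss genes. The median summed exon length was 2039 bases over all genes tested, 1751 bases for the 77, and 3258 bases for the genes below 0. With all libraries, the X chromosome held 17.2% of the tested genes, 64 of the 284 above 0 (22.5%) and 7 of the 178 below 0 (3.93%). Of the 64, 41 were in the class of 160, which held 7 genes without the 3 libraries that stood apart. The X shares were not recomputed without those libraries. The sex of the embryos was not tested as a part of the X share.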

How the data were processed

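RNA was measured in single embryos with polyA-selected libraries, per the labels' protocols. The authors deposited a table of raw read counts per gene for all 34 libraries, with the summed exon length of each gene as another column. Per the submitters' processing notes the tools were Trimmomatic 0.36, HISAT2 2.1.0, featureCounts 1.5.3 and DESeq2 1.14.1, with the FlyBase 6.20 annotation and the dm6 build. The file header gives no strand option for the counting, so reads of overlapping genes cannot be told apart. Of 17491 genes, 9519 passed edgeR's filterByExpr (minimum count 10).

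Counts were scaled by TMM and tested with edgeR 4.0.16 (R 4.3.3) in a quasi-likelihood fit of all 34 libraries with a mean for each of 9 groups, with Benjamini-Hochberg adjustment over all genes tested. Alternatives used limma 3.58.1 and DESeq2 1.42.0, other scalings, filters and thresholds, thinning, and left-out libraries. The 16 libraries held 16063942 to 41210334 counts. Bounds against groups with 0 counts use a floor of 3 counts over the group and cover counting error only. The labels describe single embryos but name no separate parents, so p-values measure the spread between these embryos.

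The comparison, the 29 gene lists and the naming rule were chosen with earlier results of these data known. The rule named the 10 most negative and 10 most positive called differences with a group mean of at least 10 CPM and no overlap between genotypes in the window with the larger effect, up to 3 members of each list, and a fixed panel.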

Additional observations from a re-analysis of the deposited data

Results flagged for a closer look

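Some single libraries lay far from the other 3 of their group. AdamTS-A was 4.82 CPM in wild-type NC10-12 replicate 1, where the others had 1.22 to 1.37 CPM. bnk was 16.6 CPM in CRY2-ZLD NC14 replicate 3, where the others had 5.06 to 6.46 CPM. Col4a1 was 34.1 CPM in wild-type NC14 replicate 3, the library with a high ribosomal protein share. hb was 768 CPM in wild-type NC10-12 replicate 3, where the others had 260 to 285 CPM. His2Av was 2980 CPM in CRY2-ZLD NC14 replicate 3, where the others had 2470 to 2540 CPM. Sxl was 123 CPM in wild-type NC10-12 replicate 3, against 1730 to 2040 CPM in the others, and 420 CPM in CRY2-ZLD NC14 replicate 2, where the others had 183 to 208 CPM. zld was 422 CPM in wild-type NC10-12 replicate 2, where the others had 482 to 489 CPM. These were 8 of 144 groups of 4 libraries examined (5.56%), and chance alone gives about 1 in 20.

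The genotype effect differed between the windows for 462 genes by the test of the difference. Among the genes named by the rule, the effect was called in opposite directions for babos (difference −4.95), gcm (−3.47), ITP (−3.77), zen (3.81) and zen2 (5.95). Of these, the differences of gcm and zen2 were also called without the 3 libraries that stood apart.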

How the results depend on the processing

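The counts of genes whose effect differed between windows depended strongly on scaling, tool and single embryos. Against 178 below 0 and 284 above 0, ribosomal protein scaling gave 36 and 53, the DESeq2 Wald test 354 and 443, a fit of only the 16 libraries 112 and 94, an adjusted p of 0.01 gave 19 and 45, and limma-voom gave 346 below 0. Without the 3 libraries that stood apart the counts were 14 and 57, and without both CRY2-ZLD NC10-12 libraries high in bcd, a choice made after seeing the data, 22 and 63. Leaving out single libraries gave 70 to 402 below 0 and 108 to 555 above 0. The count below 0 moved by over 1.5 times without CRY2-ZLD NC10-12 replicate 1, 3 or 4 (402, 70 and 75), wild-type NC10-12 replicate 1 (71), CRY2-ZLD NC14 replicate 1 or 3 (99 and 112) or wild-type NC14 replicate 1, 2 or 3 (93, 308 and 112). The count above 0 did so without CRY2-ZLD NC10-12 replicate 1, 3 or 4 (555, 108 and 141), wild-type NC10-12 replicate 1 (125), CRY2-ZLD NC14 replicate 1 (126) or wild-type NC14 replicate 1 (167). The causes were not tested.

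For the genotype effects, with ribosomal protein scaling the median effect over all genes was 0.194 in NC10-12 and 0.423 in NC14, and the median difference −0.198. It gave 889 lower in NC10-12, and 462 lower and 1466 higher in NC14. In NC10-12, the lower and higher counts were 933 and 863 without the 3 libraries and 771 and 791 without both libraries high in bcd, and an adjusted p of 0.01 gave 996 lower. In NC14, the lower and higher counts were 564 and 427 with only the 16 libraries, and 496 and 354 at an adjusted p of 0.01. A replicate block in the fit of only the 16 libraries gave 29 below 0 and 32 above 0, 975 higher in NC10-12, and 407 lower and 318 higher in NC14. Same-numbered embryos had correlations of 0.0159 to 0.281 in NC10-12 and −0.103 to −0.021 in NC14. The best match had the same number for NC10-12 replicates 1 and 3 (0.245 and 0.281) and for no other replicate of either window. Whether the numbers pair the embryos is therefore not settled by these values.

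In 3 settings (without the 3 libraries, without both high in bcd, and with ribosomal protein scaling) the class of 160 held 7, 6 and 16 genes, the 77 held 39, 44 and 26, the 22 held 9, 9 and 5, the 131 held 3, 8 and 15, the 27 held 5, 8 and 15, the 11 held 2, 2 and 3, and the 8 held 4, 4 and 3. The 16 genes above 0 and higher in both windows became 0, 2 and 2, and the 6 higher in NC10-12 and lower in NC14 became 2 in each of the first 2 settings. Lists with a member called below 0 numbered 4 in the fit reported, and 0, 1 and 1 in these settings. Over 113 genes and 171 called results, 4169 recomputed values kept direction and call, 420 lost the call and 2 changed sign. Both were the NC10-12 effect of Tao, at −0.271 without the 3 libraries and −0.253 without both high in bcd.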

Other observations

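Heat shock genes were measured beside the stress genes. Of 14 tested, 2 were higher and 3 lower under NC10-12 light, near the shares of 16.9% and 16.5% over all tested genes. Under NC14 light 5 were higher and 1 lower, where 7.79% and 9.65% of all tested genes were. Of the 14, 0 had a called difference between the windows by edgeR's quasi-likelihood test, and 3 had an unadjusted p under 0.05. Without the 3 libraries that stood apart, 0 were lower under NC10-12 light and 3 were higher under NC14 light. The genes called higher in both windows were Hsp70Aa and Hsp68, and the Hsp70 copies are nearly identical, so their counts are uncertain. Of 8 oxidative stress and light damage genes, 2 were lower under NC10-12 light (Sod2 and cry) and 1 under NC14 light (Sod2), and no member was called lower in either window by edgeR without the 3 libraries or with ribosomal protein scaling.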
